A study of Mus musculus with 56 samples.

Results

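Interferon response and antigen presentation genes were followed in mouse keratinocytes, the main cells of the epidermis, after exposure to transforming growth factor beta 1 (TGF-β1). Members were chosen by symbol: the genes of the interferon receptors, STAT and interferon regulatory factors, suppressors of cytokine signalling, interferon-induced effectors and GTPases, the immunoproteasome and peptide transporter, and the major histocompatibility complex (symbols starting H2-, with B2m and Cd74). The rule used no measured value. It found 56 genes on 61 probes, out of 6799 genes that the array measured through a probe with 1 gene symbol. A further 15 probes matched the rule but list several genes and were not used, so 10 symbols, among them Psmb9, Tapbp, H2-Q7 and H2-T22, have no value here. B2m, Tap1, Gbp2 and Ifi203 also have unused probes of this kind, and their values come from their other probes. H2-K1 and H2-D1 were likewise not analysed here.

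RNA from treated and untreated cells was hybridised together on 2-colour arrays. Primary keratinocytes came from newborn Balb/c mice, and ras keratinocytes were the same kind of culture transduced with a replication-defective retrovirus that carries the Ha-ras oncogene, so they are infected mixed cultures and not a cloned line. Both received 1 ng/ml TGF-β1 for 1, 6, 24 or 48 h, and each was set against untreated cells of its own kind. Primary and ras keratinocytes of Smad3 WT and Smad3 KO mice (Smad3+/+ and Smad3-/-, strain labelled C57B1/SVJ) received the same dose for 48 h. In the order 1, 6, 24 and 48 h, 6, 7, 6 and 3 Balb/c primary arrays and 6, 7, 6 and 4 Balb/c ras arrays were used, and each Smad3 group had 1 array. Nothing says that arrays of a group came from separate cultures, so p-values measure only the spread between arrays, which may be technical.

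Each value is a log2 ratio of treated over untreated cells, so 1 stands for a doubling. The base and direction are likely rather than stated: the treated RNA carried Cy5 on these 49 arrays, the study describes treated cells compared with untreated cells, and the size of the values does not allow base 10. The other 7 arrays had the dyes reversed, their deposited sign is unsettled, and they are given apart. All 49 arrays of the fit carry the treated RNA in Cy5. In a single response a dye bias of a gene thus cannot be told apart from its change. A ratio shows no level, so the cell type could not be checked against marker levels. The SD of all features on an array ran from 0.194 to 1.81.

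Type I interferons bind the receptor pair Ifnar1 and Ifnar2, and interferon gamma binds Ifngr1 and Ifngr2. Janus kinases at these receptors phosphorylate STAT proteins, which with Irf9 bind the interferon-stimulated response element of effector genes or, as STAT dimers, the gamma-activated sequence. The induced genes block viral replication, damp the pathway itself through Usp18 and the SOCS proteins, and supply peptides to MHC class I. In skin, MHC class II is mainly carried by Langerhans cells, and keratinocytes can show it after exposure to interferon gamma. TGF-β1 signals through SMAD proteins and arrests keratinocyte growth.

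Promoter sequence shows the element by which this gene group is classically recognised, so the 250 bases before the start are printed for Ifit1, Isg15 and Irgm1, which rose in primary cells, for Oasl2, which rose without a match, and for Ifi209, which fell in ras cells. The starts are those of the promoter table and need not be the first of a gene: the last few bases of the Oasl2 window run past the first base of its annotated span. Sequences are from RefSeq on GRCm38.p6 and read 5′ to 3′ along the gene. Capitals mark the core of the interferon-stimulated response element on either strand, which is GAAA, NN and GAAA in one run (N stands for any base), or TTTC, NN and TTTC when it lies on the other strand.
Ifit1 (chr19:34640639-34640888, plus strand): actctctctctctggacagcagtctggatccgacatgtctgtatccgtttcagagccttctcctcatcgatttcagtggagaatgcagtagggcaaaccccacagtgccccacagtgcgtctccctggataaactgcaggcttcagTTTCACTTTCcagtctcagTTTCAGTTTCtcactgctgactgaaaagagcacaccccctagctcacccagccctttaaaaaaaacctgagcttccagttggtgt
Isg15 (chr4:156200819-156201068, minus strand): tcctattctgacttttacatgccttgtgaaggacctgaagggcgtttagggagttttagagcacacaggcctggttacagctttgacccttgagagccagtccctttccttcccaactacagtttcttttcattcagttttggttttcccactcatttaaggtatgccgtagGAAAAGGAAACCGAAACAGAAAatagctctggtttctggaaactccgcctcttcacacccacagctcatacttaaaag
Irgm1 (chr11:48871421-48871670, minus strand): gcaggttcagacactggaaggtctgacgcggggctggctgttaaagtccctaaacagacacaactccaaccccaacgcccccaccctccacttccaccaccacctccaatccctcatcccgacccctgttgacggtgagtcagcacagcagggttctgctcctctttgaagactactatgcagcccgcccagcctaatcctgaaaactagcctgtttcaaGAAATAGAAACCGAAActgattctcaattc
Oasl2 (chr5:114896684-114896933, plus strand): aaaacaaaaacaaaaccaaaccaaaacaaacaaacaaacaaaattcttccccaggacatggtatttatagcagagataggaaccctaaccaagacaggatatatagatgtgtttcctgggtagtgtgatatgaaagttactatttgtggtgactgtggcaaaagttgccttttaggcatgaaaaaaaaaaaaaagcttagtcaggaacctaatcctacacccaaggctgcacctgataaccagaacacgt
Ifi209 (chr1:173630609-173630858, plus strand): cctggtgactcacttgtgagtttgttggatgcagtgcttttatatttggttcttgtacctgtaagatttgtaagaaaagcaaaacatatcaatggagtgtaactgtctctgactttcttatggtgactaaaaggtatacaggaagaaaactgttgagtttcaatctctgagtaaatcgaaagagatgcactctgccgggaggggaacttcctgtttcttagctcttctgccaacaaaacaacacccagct

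Ifit1 held 2 separate matches, Isg15 held 3 matches that overlap one another, and Irgm1 held 2 that overlap. The table's window for Ifit3 (chr19:34583279-34583528, plus strand) also held 2 but lies inside the annotated span of the gene, which begins at base 34583119, so another transcript start was used there and its sequence is not printed. Over the members, 48 of 56 genes were found in the promoter table, with 56 windows between them, and 16 windows (28.6%) held the core. Of all 32851 windows in the table, 978 (2.98%) did. TTCNNNGAA, the palindromic gamma-activated sequence, was in 21.4% of member windows and 7.02% of all windows. CAGACA or its reverse complement, a SMAD-binding element, was in 16.1% and 17.1%. The motifs may overlap in a window. Members called in some response had 21 windows, of which 9 held the interferon core. The printed windows do not show that the core goes with a rise. Socs1 and Ifi203, called lower in ras cells at 24 h, also held the core. Irf7 and Psmb8, called higher there, held no match. The Irf7 window (chr7:141266425-141266674, minus strand) lies partly inside the annotated span of the gene, which on this strand begins at base 141266499. A match describes these letters and is not a measured binding site.

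In primary cells 11 of 56 members rose and 0 fell at 48 h (limma, adjusted p under 0.05, called from here on), among them Ifit3, Usp18, Isg15 and Oasl2. Of all 8905 features, 8.6% were called at that time and 5.11% rose. In ras cells 9 members rose and 3 fell at 24 h, where 10.5% of all features were called, 3.84% upward and 6.67% downward. At 48 h in ras cells 3 rose and 1 fell, against 3.5% of all features called (1.9% upward and 1.61% downward). At 1 h and 6 h 0 members were called in either cell type, against 0.0112% of all features at each time in primary cells. The ras background was 0.0786% at 1 h (0.0674% upward and 0.0112% downward) and 1.73% at 6 h (1.36% upward and 0.371% downward). At 24 h in primary cells 0 were called, against 1.36% (0.348% upward and 1.01% downward). At an unadjusted p under 0.05 these limma counts of 0 would be 4, 11 and 8 members in primary cells at 1, 6 and 24 h, and 6 and 8 in ras cells at 1 and 6 h. In primary cells these are 7.14%, 19.6% and 14.3% of members, against 5.37%, 9.42% and 10.1% of all features. In ras cells they are 10.7% and 14.3%, against 7.03% and 11.9%. The median member went from -0.01 at 1 h to 0.25 at 48 h in primary cells and from 0.03 to 0.16 in ras cells. The median of all features lay between -0.05 and 0.01 in all 8 groups, held near 0 by centring each array on its median.

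Of the 56 members, 21 were called in at least 1 response and 35 in none. Usp18, Isg15, Oasl2 and Socs6 were called in both cell types. All of these calls rest on a spread shared by every group: when each group was fitted on its own arrays, 0 members were called in any response. They also rest on few arrays. Leaving out 1 array at a time, the count at 48 h in primary cells was 3 without replicate 2, 6 without replicate 1 and 10 without replicate 5. The ras count at 24 h was 5 without replicate 1 and 7 without replicate 7. With 1 ras array at 48 h left out, 0 members were called if it was replicate 1, 1 if it was replicate 3 and 7 if it was replicate 2. At 6 h in ras cells it was 1 without replicate 6. At 48 h, 25 of 56 members were above 0 on every primary array and 4 were below 0 on every one. On the ras arrays 8 were above 0 throughout and 8 below. How many of all features keep 1 sign was not counted, so sign agreement on so few arrays is only a description.

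**Figure D1:**
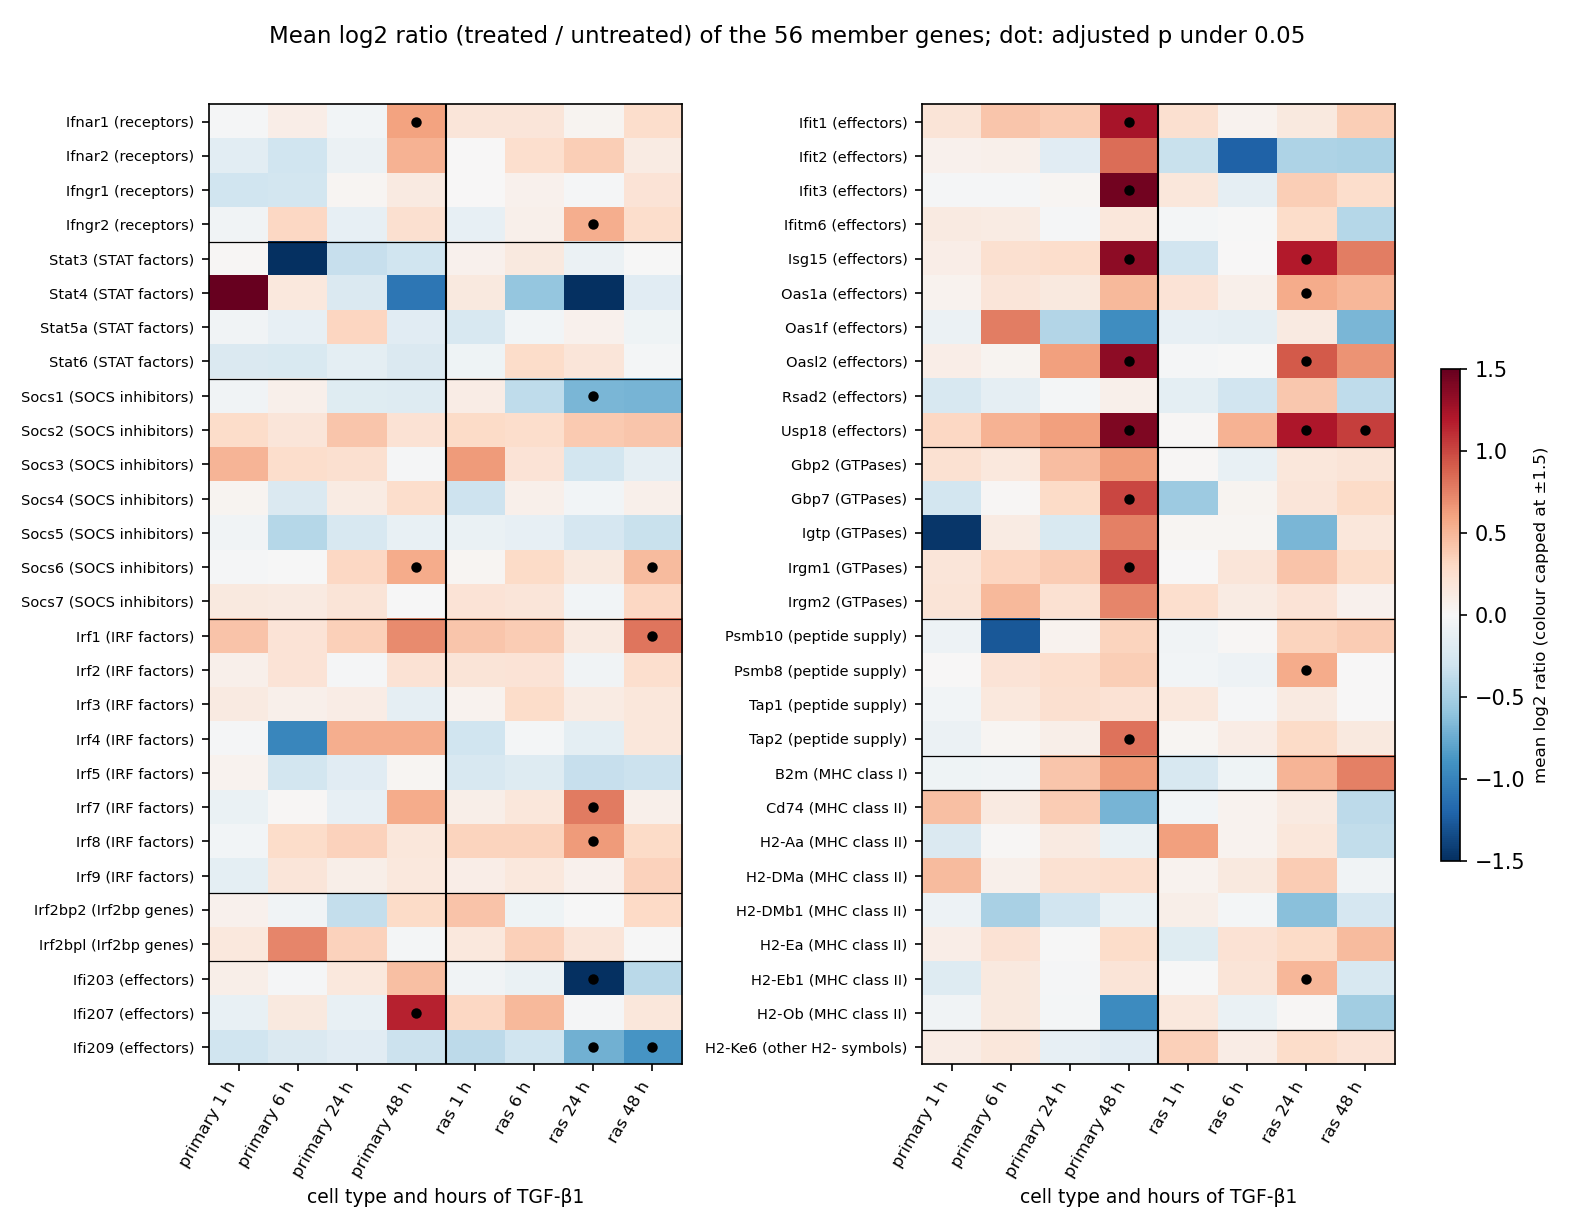
Mean log2 ratio of treated over untreated cells (colour, capped at 1.5 either way) for the 56 member genes, in rows ordered by role, in the 8 Balb/c groups in columns. Black dots mark adjusted p under 0.05 by limma and lie only in the columns of 24 h ras, 48 h primary and 48 h ras cells; full colours at earlier times, such as Stat4 at 1 h and Stat3 at 6 h, carry no dot.

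**Figure D2:**
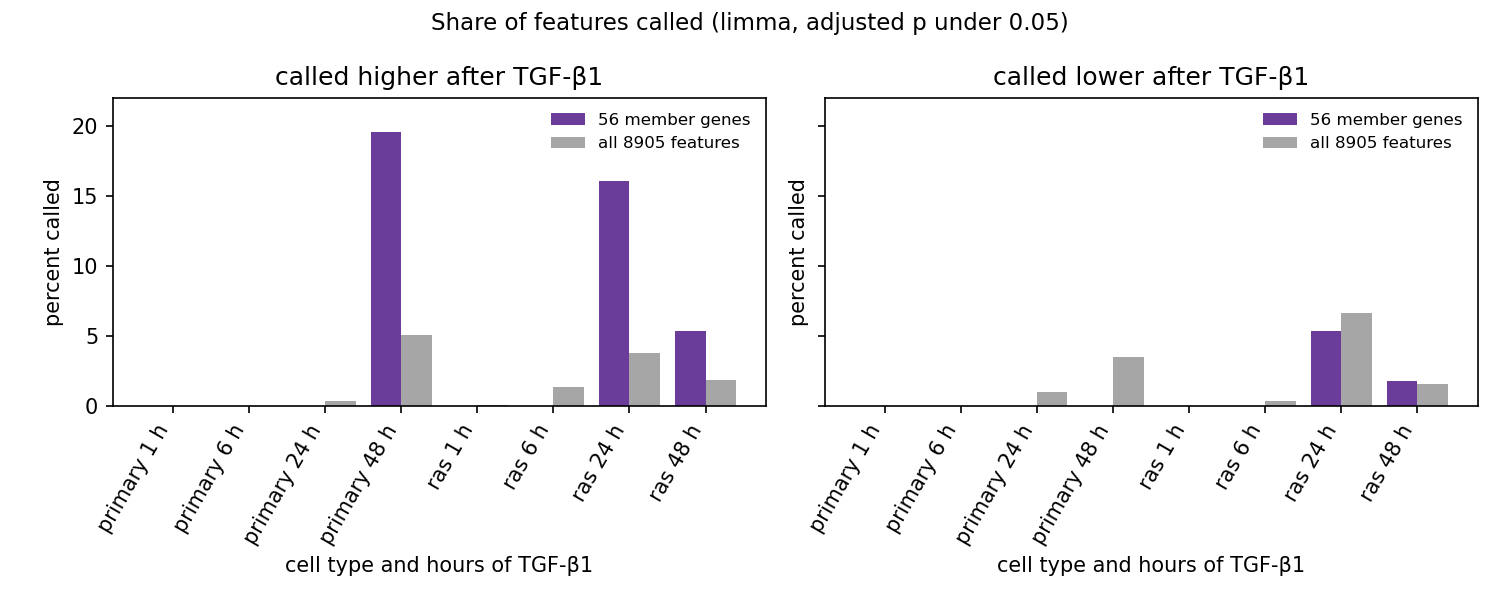
Percent of the 56 members (purple) and of all 8905 features (grey) called higher (left) or lower (right) in each Balb/c group, by cell type and hours of TGF-β1. At 48 h in primary cells 19.6% of members were called higher against 5.11% of all features, and at 24 h in ras cells 16.1% against 3.84%.

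Of the 4 receptor genes, Ifnar1 rose in primary and Ifngr2 in ras cells. Ifnar1, a chain of the type I interferon receptor, read 0.69, 0.43 and 0.68 on the 3 primary arrays at 48 h, a mean of 0.60 ± 0.178 (SE, n = 3, adjusted p = 0.026). All 3 arrays were above 0, but the call was lost without any of them (adjusted p up to 0.161). Its mean in the other 7 responses lay between -0.04 and 0.27. On all 5 Balb/c arrays with reversed dyes Ifnar1 was also above 0, as deposited. Ifnar2, the partner chain, averaged 0.52 at 48 h in primary cells and was not called (adjusted p = 0.215). Ifngr2, the signalling chain of the interferon gamma receptor, read -0.06, 0.14, 0.50, 0.53, 0.61 and 1.51 in ras cells at 24 h, a mean of 0.54 ± 0.16 (SE, n = 6, adjusted p = 0.0262). The array at 1.51 was replicate 1, and without it the mean was 0.35 and the call was lost, as it was without replicate 6 or 7. Ifngr1, the chain that binds interferon gamma, had means from -0.29 at 1 h in primary cells to 0.21 at 48 h in ras cells and was called nowhere.

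None of the 4 STAT genes measured (Stat3, Stat4, Stat5a and Stat6, transcription factors of cytokine signalling) was called in any of the 8 responses. Their widest means came from single arrays. Stat3 averaged -1.56 at 6 h in primary cells, with a lowest array of -9.72, a median of -0.30 and a highest of 0.29. Stat4 averaged 1.50 at 1 h in primary cells with 1 array at 10.16 and a median of 0.05, and -2.29 at 24 h in ras cells with 1 array at -9.99 and a median of -0.96. Similar lone values stood behind the means of Psmb10 and Irf4 at 6 h and Igtp at 1 h in primary cells, whose lowest arrays were -8.98, -7.06 and -7.82.

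Among the 7 SOCS genes, which inhibit cytokine receptors and their kinases, Socs6 rose in both cell types. It read 0.45, 0.63 and 0.58 on the primary arrays at 48 h (mean 0.56 ± 0.144, SE, n = 3, adjusted p = 0.00946). In ras cells at 48 h it read 0.53, 0.19, 0.86 and 0.33 (mean 0.48 ± 0.124, SE, n = 4, adjusted p = 0.0248). All 7 of these arrays were above 0. The primary call was lost without replicate 2 (adjusted p = 0.115) and the ras call without replicate 1 or 3 (up to 0.233). Socs1, the inhibitor most closely tied to interferon receptors, fell in ras cells at 24 h by 0.68 ± 0.225 (SE, n = 6, adjusted p = 0.0438), from arrays of -2.57, -0.90, -0.75, -0.17, -0.002 and 0.29. Without replicate 1, the lowest, the mean was -0.31 and the call was lost, as it was without replicate 6 or 7. By 48 h in ras cells Socs1 averaged -0.70 and was not called (adjusted p = 0.14). On all 7 ras arrays at 6 h it was below 0, with a mean of -0.39 (adjusted p = 0.477).

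Socs3, an inhibitor induced by many cytokines, had its largest means early. The lowest ras array at 1 h was 0.17, the median 0.76 and the highest 1.01, with a mean of 0.64 (adjusted p = 0.34). All 6 ras arrays at 24 h were below 0, with a mean of -0.27 (adjusted p = 0.396). Its late minus early difference in ras cells was -0.63 ± 0.193 (SE, adjusted p = 0.0998), and no Socs3 value was called. Socs2, another inhibitor, was above 0 on all 7 ras arrays at 6 h (mean 0.26, adjusted p = 0.48).

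Of the 8 interferon regulatory factors, Irf7 and Irf8 rose in ras cells at 24 h and Irf1 at 48 h. Irf7, which drives type I interferon genes, read 0.01, 0.27, 0.80, 0.91, 1.02 and 1.68 at 24 h, a mean of 0.78 ± 0.212 (SE, n = 6, adjusted p = 0.0177). Every array was above 0, and the call was lost without replicate 1 (adjusted p = 0.132). Irf8, known from myeloid cells, read -0.06, 0.03, 0.83, 0.94, 1.04 and 1.06, a mean of 0.64 ± 0.19 (SE, n = 6, adjusted p = 0.0268), with the low pair of arrays apart from the other four. Its call was lost without any of the 4 high arrays (adjusted p up to 0.117). Irf1, an activator of MHC class I and immunoproteasome genes, read 0.93, 0.55, 1.11 and 0.60 in ras cells at 48 h (mean 0.80 ± 0.224, SE, n = 4, adjusted p = 0.0362), and the call was lost without replicate 1 or 3 (up to 0.2).

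In primary cells at 48 h Irf1 read 0.80, 0.84 and 0.49, with a mean of 0.71 and an adjusted p of 0.0826. It was also above 0 on all 6 arrays at 1 h in each cell type, with means of 0.43 in primary and 0.41 in ras cells, neither called (adjusted p = 0.902 and 0.652), and on all 6 primary arrays at 24 h (mean 0.35). Irf9, the DNA-binding partner of the STAT proteins in the type I response, had means from -0.14 to 0.34 and was called nowhere. Irf2, a repressor of the same element, was above 0 on all 7 primary arrays at 6 h with a mean of 0.20 (adjusted p = 0.426), and Irf4, a lymphocyte factor, on all 6 at 24 h with a mean of 0.54 (adjusted p = 0.871). Irf2bp2 and Irf2bpl, which match the rule by name and encode proteins related to the Irf2 partner Irf2bp1, were called nowhere. Both had an early group entirely above 0: Irf2bp2 in ras cells at 1 h (mean 0.43, adjusted p = 0.421) and Irf2bpl in ras cells at 6 h (mean 0.36, adjusted p = 0.623).

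Of the 13 interferon-induced effectors, 6 were called higher in primary cells at 48 h. Ifit3, a protein that restrains viral translation together with Ifit1, read 1.43, 0.93 and 1.99, a mean of 1.45 ± 0.22 (SE, n = 3, adjusted p = 1.51e-05) or 2.73-fold. The highest of the 19 earlier primary arrays was 0.48. Ifit3 has the largest mean of all members in this group, and how many features separate in this way was not counted. Leaving out any of the 3 arrays kept the call (adjusted p at most 0.00244). The 4 ras arrays at 48 h read 0.01, 0.17, 0.11 and 0.75. At 24 h the 6 ras arrays read -0.40, -0.28, 0.21, 0.80, 0.86 and 1.05, with a mean of 0.37 that was not called (adjusted p = 0.12). Ifit1 read 1.57, 1.25 and 0.88 in primary cells at 48 h (mean 1.23 ± 0.291, SE, n = 3, adjusted p = 0.00436), with the call lost without replicate 1 or 2 (up to 0.0807). It was above 0 on all 6 primary arrays at 24 h (mean 0.39, adjusted p = 0.555). The 6 ras values of Ifit1 at 24 h split, with 3 arrays between -0.99 and -0.63 and 3 between 0.83 and 1.40.

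Isg15, a ubiquitin-like modifier, Usp18, the protease that removes it and damps the type I receptor, and Oasl2, a relative of the RNA-sensing oligoadenylate synthetases, rose in both cell types. Isg15 read 1.91, 1.17 and 0.94 in primary cells at 48 h (mean 1.34 ± 0.328, SE, n = 3, adjusted p = 0.0061). On the ras arrays at 24 h it read 0.34, 0.56, 0.57, 1.54, 2.03 and 2.11 (mean 1.19 ± 0.232, SE, n = 6, adjusted p = 0.0014). All 9 of these arrays were above 0. Usp18 read 1.25, 1.81 and 1.13 in primary cells at 48 h (mean 1.40 ± 0.355, SE, n = 3, adjusted p = 0.0082). The ras arrays at 24 h read 0.03, 0.72, 0.75, 1.57, 1.60 and 2.62 (mean 1.22 ± 0.251, SE, n = 6, adjusted p = 0.00219). The ras arrays at 48 h read 1.21, -0.27, 1.53 and 1.66 (mean 1.03 ± 0.307, SE, n = 4, adjusted p = 0.0495). Of its 13 arrays in these 3 groups, only ras replicate 2 at 48 h was below 0. Earlier, Usp18 was above 0 on all 6 primary arrays at 1 h, with a mean of 0.31 (adjusted p = 0.999).

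Oasl2 read 1.56, 1.47 and 0.98 in primary cells at 48 h (mean 1.34 ± 0.304, SE, n = 3, adjusted p = 0.00305). The 6 ras arrays at 24 h read -0.07, 0.40, 0.96, 1.08, 1.28 and 1.87 (mean 0.92 ± 0.215, SE, n = 6, adjusted p = 0.00681). It was also above 0 on all 6 primary arrays at 24 h, with a mean of 0.62 (adjusted p = 0.181). The ras calls at 24 h of Isg15, Usp18 and Oasl2 were kept without each array in turn (adjusted p at most 0.0132, 0.023 and 0.0407). In primary cells the Isg15 call was lost without replicate 1 (adjusted p = 0.133), and those of Usp18 and Oasl2 without replicate 2 (0.15 and 0.0519). The ras call of Usp18 at 48 h was lost without replicate 1, 3 or 4 (up to 0.255).

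These genes were high on the same arrays. All of Isg15, Usp18 and Oasl2 exceeded 1 on 2 of 3 primary and 2 of 4 ras arrays at 48 h, on 1 of 6 primary and 3 of 6 ras arrays at 24 h, and on 0 arrays at 1 or 6 h. The single primary array at 24 h was replicate 6, at 1.59, 2.35 and 2.07, while Isg15 on the other 5 lay between -0.55 and 0.30. On ras replicate 2 at 48 h the genes read -0.64, -0.27 and -0.29. Groups with a high mean thus held low arrays too.

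**Figure D3:**
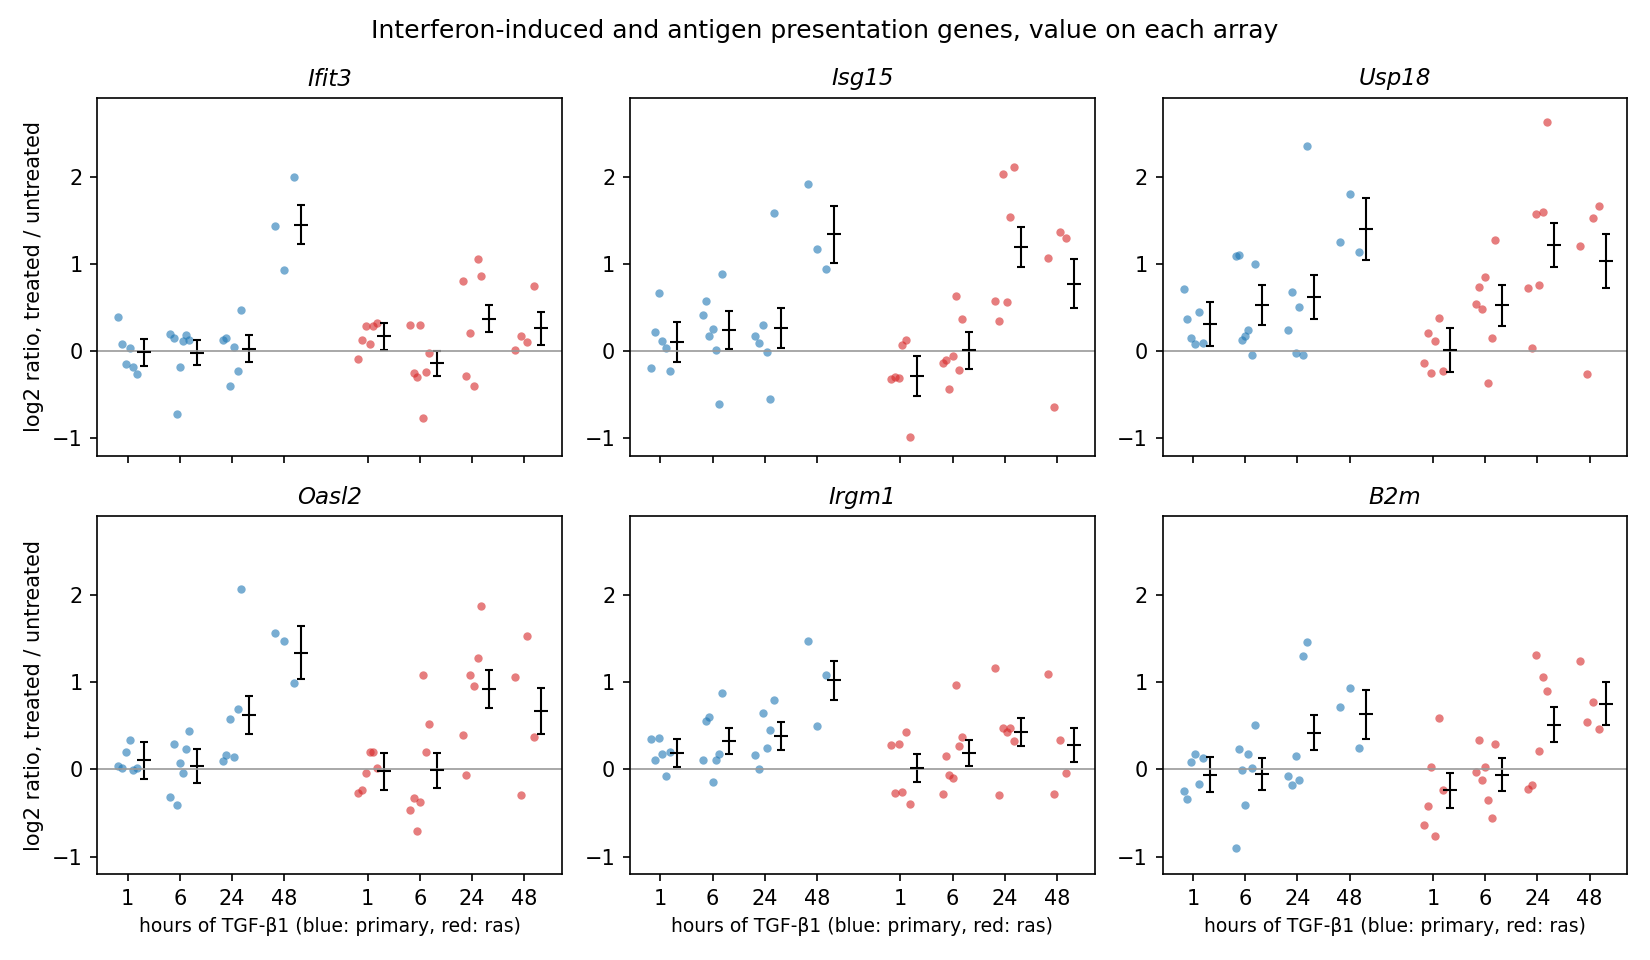
Log2 ratio of treated over untreated cells on each array (points) for 6 members, by hours of TGF-β1 in primary (blue) and ras (red) Balb/c cells; the black bar is the group mean and its standard error from the fit. The 3 primary arrays of Ifit3 at 48 h lie between 0.93 and 1.99, and Isg15, Usp18 and Oasl2 each spread from low to high values over the ras arrays at 24 h and 48 h.

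The Ifi200 genes, which form a cluster of close relatives and encode DNA-binding proteins, were called in both directions. Ifi207 read 0.43, 1.53 and 1.50 in primary cells at 48 h (mean 1.15 ± 0.258, SE, n = 3, adjusted p = 0.00263), with the call lost without replicate 2 (0.089). Ifi209 fell in ras cells at 24 h by 0.73 ± 0.198 (SE, n = 6, adjusted p = 0.0177), with all 6 arrays between -1.31 and -0.48. It also fell at 48 h by 0.89 ± 0.242 (SE, n = 4, adjusted p = 0.032), with arrays of -1.20, -0.48, -0.11 and -1.76. Leaving out replicate 1 ended the 24 h call (adjusted p = 0.108), and leaving out replicate 1 or 4 ended the 48 h call (adjusted p at most 0.209). On the 5 Balb/c arrays with reversed dyes Ifi209 was also below 0, from -1.95 to -0.12, as deposited. With the reversed arrays turned and a dye term its value at 48 h in ras cells was 0.15, so its direction there depends on the unsettled sign of those arrays. Ifi203 was called lower in ras cells at 24 h with a mean of -1.62 ± 0.402 (SE, n = 6, adjusted p = 0.0102), from arrays of -5.61, -1.64, -1.06, -0.70, -0.64 and -0.09. Without replicate 3, the lowest, its mean was -0.83 and the call was lost (adjusted p = 0.0872). Probes of such near-identical relatives may share signal, which was not tested.

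Oas1a, an oligoadenylate synthetase that activates RNA decay, read 0.25, 0.32, 0.41, 0.61, 0.64 and 1.15 in ras cells at 24 h (mean 0.56 ± 0.149, SE, n = 6, adjusted p = 0.015), and the call was lost without replicate 7 (0.0721). Its relative Oas1f was below 0 on every array at 48 h, with means of -0.94 in primary and -0.68 in ras cells, neither called (adjusted p = 0.412 and 0.555). Ifit2 had a mean of 0.83 in primary cells at 48 h that was not called. On the 7 ras arrays at 6 h it was below 0 throughout, with a mean of -1.21, a median of -0.46 and a lowest array of -5.46 (adjusted p = 0.0701). Rsad2 (viperin), a classical antiviral effector, averaged 0.07 in primary cells at 48 h, and neither it nor Ifitm6 was called anywhere.

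The interferon-induced GTPases, which act on vacuoles that hold pathogens, were all above 0 on every primary array at 48 h, with 5 means from 0.62 to 1.02. In that group 25 of the 56 members were above 0 on every array. Irgm1, a regulator of the family, read 1.47, 0.50 and 1.08 (mean 1.02 ± 0.227, SE, n = 3, adjusted p = 0.00263), and Gbp7, a guanylate-binding protein, 1.08, 1.24 and 0.69 (mean 1.00 ± 0.304, SE, n = 3, adjusted p = 0.0294). The Irgm1 call was lost without replicate 1 (0.0959) and that of Gbp7 without replicate 1 or 2 (up to 0.265). Gbp2, Igtp and Irgm2 averaged 0.62, 0.76 and 0.73 and were not called. Among ras arrays at 48 h the 5 means lay between 0.07 and 0.28, and none was called in ras cells at any time. Irgm2 was also above 0 on all 7 primary arrays at 6 h (mean 0.48, adjusted p = 0.291).

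Of 4 peptide supply genes for MHC class I, 1 was called in primary cells at 48 h and 1 in ras cells at 24 h. All 4 means were above 0 in both groups, from 0.21 to 0.81 and from 0.13 to 0.56. Whether these genes differ from each other was not tested. Tap2, which with Tap1 pumps peptides into the endoplasmic reticulum, read 0.62, 0.82 and 0.99 in primary cells at 48 h (mean 0.81 ± 0.193, SE, n = 3, adjusted p = 0.00476), and the call was lost without replicate 2 (0.0528). Tap1 read from -0.72 to 0.70 on the same 3 arrays, with a mean of 0.21. Psmb8, an inducible subunit of the immunoproteasome, read 0.15, 0.35, 0.51, 0.55, 0.57 and 1.23 in ras cells at 24 h (mean 0.56 ± 0.173, SE, n = 6, adjusted p = 0.0322). Its call was lost without replicate 1, 3 or 7 (up to 0.209). Psmb10, another such subunit, averaged 0.33 there and was not called.

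B2m, the light chain of MHC class I, was called in no single response but was higher late than early in ras cells. It was above 0 on all 4 ras arrays at 48 h (1.24, 0.54, 0.77 and 0.46, mean 0.75 ± 0.244, SE, n = 4, adjusted p = 0.0731). At 24 h its arrays parted: in primary cells the highest were 1.30 and 1.46 and the median was 0.04, and in ras cells 3 arrays lay at 0.90 or above and 3 at 0.21 or below. In primary cells at 48 h it averaged 0.63. The B2m values come from 1 probe, and further probes that list B2m with Phf20l1 were not examined.

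Of 7 MHC class II genes, 1 was called once. H2-Eb1, a class II beta chain, read -0.51, 0.19, 0.28, 0.32, 1.09 and 1.63 in ras cells at 24 h (mean 0.50 ± 0.164, SE, n = 6, adjusted p = 0.0437). The call was lost without replicate 1, 3 or 6 (adjusted p up to 0.4), with a mean of 0.27 without replicate 1, and among the arrays with later database numbers alone the mean was -0.10. Cd74, the invariant chain that escorts class II, was below 0 on all 3 primary arrays at 48 h (mean -0.70, adjusted p = 0.307). H2-Ob, part of the inhibitor of peptide loading, was below 0 on all 3 primary arrays (mean -0.94, adjusted p = 0.0558) and all 4 ras arrays at 48 h (mean -0.53, adjusted p = 0.301). H2-Aa averaged -0.10 and H2-Ea 0.28 in primary cells at 48 h, and H2-Ea was above 0 on all 7 ras arrays at 6 h (mean 0.21, adjusted p = 0.578). H2-Ke6, a gene of the region that encodes no MHC chain, was called nowhere.

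The effect of time was tested within each cell type as the mean of the 24 h and 48 h groups minus the mean of the 1 h and 6 h groups, a difference in which a constant dye bias cancels. In primary cells 3 members were higher late, against 1.93% of all features called (1.29% higher): Ifit3 by 0.76 ± 0.171 (SE, adjusted p = 0.00773), Oasl2 by 0.91 ± 0.237 (adjusted p = 0.0313) and Socs6 by 0.44 ± 0.112 (adjusted p = 0.0238). In ras cells 2 were higher late, against 1.27% (0.741% higher): Isg15 by 1.12 ± 0.242 (SE, adjusted p = 0.0142) and B2m by 0.78 ± 0.208 (adjusted p = 0.0468). The Ifit3 difference kept its call without each of the 22 primary arrays (adjusted p at most 0.0479). Oasl2 lost its call without replicate 1 or 2 at 48 h or replicate 6 at 24 h (up to 0.0974), Socs6 without replicate 2 at 48 h (0.0845), and Isg15 without replicate 3 at 48 h (0.0529). B2m lost its call without any of 15 of the 23 ras arrays (up to 0.162). The count for primary cells was 1 without replicate 2 at 48 h. For ras cells it was 0 without replicate 3 at 48 h, 4 without replicate 3 at 24 h or replicate 2 at 48 h, and otherwise 1 or more. All 48 h arrays lie outside the first range of the authors' database numbers, and among arrays with later numbers alone 0 members were called in either difference. Among those arrays alone 15 members were called at 48 h in primary cells, 3 at 24 h in primary cells and 2 at 24 h in ras cells, and among the first range of numbers alone 3 were called at 24 h in ras cells.

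The difference between cell types was tested directly at each time, and 0 members passed at 1, 6, 24 or 48 h, against 0%, 0%, 0.0449% (0.0337% higher in ras cells) and 0.202% (0.0337% higher, 0.168% lower) of all features. At an unadjusted p under 0.05 the limma counts were 1, 5, 5 and 6. These are 1.79%, 8.93%, 8.93% and 10.7% of members, against 4.17%, 4.59%, 10.3% and 6.67% of all features. The smallest adjusted p belonged to Ifit3 at 48 h, where ras minus primary was -1.19 ± 0.291 (SE, adjusted p = 0.0742), followed at that time by Ifi207 at -0.98 ± 0.341 (adjusted p = 0.31). Without primary replicate 2 at 48 h, 1 member passed at 48 h. At 24 h Ifi203 was at -1.78 ± 0.569 (adjusted p = 0.417), Irf7 was 0.91 ± 0.3 higher in ras cells (adjusted p = 0.434) and Isg15 0.93 ± 0.328 (adjusted p = 0.449), neither called. A call in 1 cell type and not in the other is thus not shown to be a difference between them.

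Genotype was examined at 48 h. The targeted gene comes first: the Smad3 probe read -0.84 and -0.31 on the Smad3 WT primary and ras arrays and -2.79 and -0.68 on the KO arrays, ratios within 1 genotype that do not check the deletion. Of the 11 members called in Balb/c primary cells at 48 h, 2 were above 0 and 9 below on the Smad3 WT primary array, with a median of -0.68. The KO primary array also had 2 above and 9 below, with a median of -0.44. On both ras arrays 5 were above 0 and 6 below. Ifit3 read -1.26 (WT primary), -0.85 (KO primary), -0.01 (WT ras) and 0.12 (KO ras). Isg15 read -1.04, -0.40, -0.29 and 0.09 in the same order. The wild-type primary array thus did not show the rise of the Balb/c primary arrays, and strain and database numbers both differ between these arrays and cannot be told apart.

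KO minus WT, averaged over primary and ras cells with the lone arrays assumed to vary like the other groups, called 0 members, against 1.74% of all features (0.438% higher and 1.3% lower). At an unadjusted p under 0.05 the limma count was 6 members (10.7%), against 6.72% of all features. Irf7 had the smallest unadjusted p, at -1.31 ± 0.52 (SE, adjusted p = 0.413), from -0.42 and 0.01 on the WT primary and ras arrays and -2.33 and -0.71 on the KO arrays. Ifi207 was -1.05 ± 0.446 (adjusted p = 0.529) and Cd74 -1.57 ± 0.682 (adjusted p = 0.55). From 60 measured related genes outside the rule, Nmi and Cmpk2 were picked for their KO minus WT difference. It was -1.85 for Nmi, a partner of STAT proteins, and -2.80 for Cmpk2, an antiviral nucleotide kinase. With 1 array per group, these differences do not show an effect of genotype. Nmi read -2.07 and 1.33 on the WT primary and ras arrays and -5.27 and 0.83 on the KO arrays, and Cmpk2 read -0.12 and -1.31 against -2.08 and -4.96. In each gene 1 KO array lay far below the other three.

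**Figure D4:**
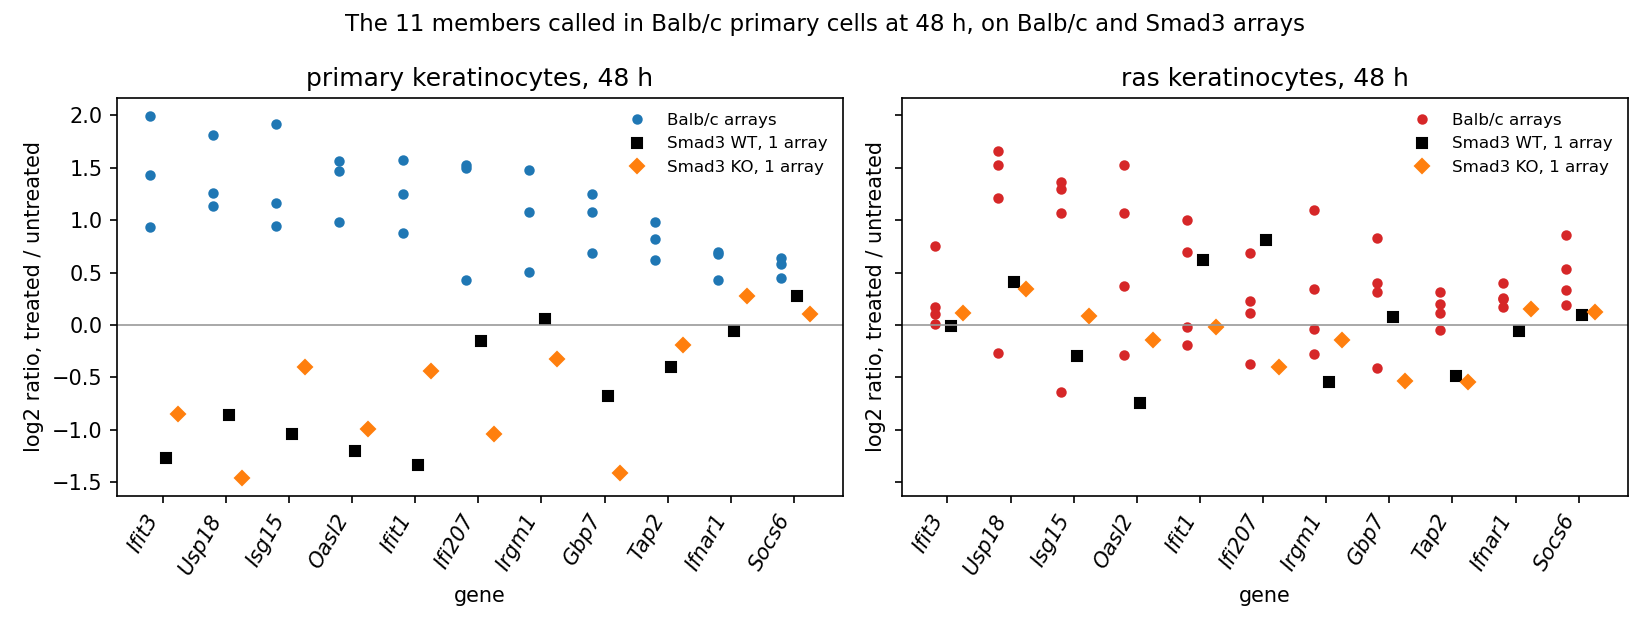
Log2 ratio of treated over untreated cells at 48 h for the 11 members called in Balb/c primary cells, on the Balb/c arrays (round points), the Smad3 WT array (squares) and the Smad3 KO array (diamonds) of primary (left) and ras (right) keratinocytes. All Balb/c primary points lie above 0, while 9 of 11 genes lie below 0 on each Smad3 primary array.

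The arrays with reversed dyes gave the following signs as deposited. On both reversed Balb/c primary arrays at 48 h, 10 of the 11 members called there were below 0, the opposite of the arrays above, and Ifnar1 was above 0 on both (0.24 and 0.21). Ifit3 read -1.17 and -1.14, Isg15 -0.80 and -0.94, and Usp18 -0.42 and -0.31. Across all features, which are not independent replicates, the correlation of these 2 arrays with the mean of their group was 0.0711 and -0.0417, so the deposited sign is not settled by them. The reversed Smad3 KO primary and ras arrays correlated at 0.482 and 0.412 with the KO array of the same cells and opposite dye. With the reversed arrays turned and a dye term, 11 members were called in primary cells at 48 h, 2 in ras cells at 24 h and 0 in ras cells at 48 h. With them as deposited the counts were 4, 4 and 1.

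Beyond the rule, 105 further interferon, Janus kinase and antigen presentation genes were listed, of which 60 were measured. This list too was drawn up with earlier results of these data known. At 48 h in primary cells 7 rose and 2 fell, against 5.11% and 3.49% of all features. Among ras arrays 9 rose and 1 fell at 24 h, against 3.84% and 6.67%, and 1 rose and 1 fell at 48 h, against 1.9% and 1.61%. At 24 h in primary cells 1 rose, against 0.348%, and at 1 h and 6 h 0 were called in either cell type. Cxcl10, a chemokine induced by interferon gamma, read 0.99, 0.98 and 1.53 in primary cells at 48 h, a mean of 1.17 ± 0.243 (SE, n = 3, adjusted p = 0.00124), and averaged 0.62 in ras cells at 24 h (adjusted p = 0.0196). Lgals9 (galectin 9) rose by 1.15 in primary cells at 48 h and by 1.12 and 0.99 in ras cells at 24 h and 48 h. Psme1, a proteasome activator that favours class I peptides, rose in ras cells at 24 h by 0.71, and Ctss and Ctsl, cathepsins that process class II ligands, rose in primary cells at 48 h by 1.68 and 1.66. Among the genes that fell, Jak2, a kinase of the interferon gamma receptor, was at -1.22 and Ccl5, a chemokine, at -1.84 in primary cells at 48 h, Epsti1 at -2.43 in ras cells at 24 h and Cxcl9 at -1.14 in ras cells at 48 h.

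In primary cells at 48 h, where 5.11% of all features rose and 3.49% fell, genes listed as cell type markers were called as well. The lists were drawn up with earlier results of these data known, so these counts are a description and no independent support. Ctss is also in the list of further pathway genes above. Of 18 myeloid and Langerhans markers, 13 were measured and 5 rose: Lyz2 (lysozyme) by 2.59, Ctss by 1.68, Epcam by 1.28, Tyrobp by 1.01 and Fcer1g by 0.77. The mean of the 13 lay between 0.28 and 1.07 on the 3 primary arrays at 48 h and between -0.16 and 0.40 on the 4 ras arrays. Of 11 fibroblast markers, 8 were measured and 3 rose (Col1a2 by 1.83, Mfap5 by 1.77 and Twist1 by 1.28), with a mean over the list between 0.62 and 0.92 on these arrays and between -0.47 and 0.40 on the ras arrays at 48 h. Of 14 keratinocyte markers 9 were measured, of which Krt10, Krt15 and Trp63 fell by 1.31, 1.02 and 1.01. Of 13 lymphocyte markers 9 were measured and Cd8a fell by 1.75, and of 7 endothelial and 6 melanocyte markers 5 and 1 were measured and 0 were called. At 24 h in ras cells 1 myeloid marker rose (Lyz2 by 0.54) and 1 fell, against 3.84% and 6.67% of all features. There 0 fibroblast markers were called, and at 48 h Lyz2 rose by 0.96, where 1.9% of all features rose. Of the myeloid markers 1 rose and 0 fell at 24 h in primary cells, and likewise at 6 h in ras cells, where 0.348% and 1.36% of all features rose. The part of these cells in the interferon results was not tested, and in bulk RNA more cells of a type and more RNA per cell cannot be told apart.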

How the data were processed

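The authors deposited 1 value per probe and array for 9596 probes on 56 arrays, with neither scale nor direction stated in the sources used here. The deposited values behave as log2 ratios: they take both signs, centre near 0 (array medians -0.146 to 0.02) and reach 11.328, too large for base 10. The normalization is not given in the sources used here. The number of arrays limits precision.

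From every value the median of its array was subtracted, and probes of 1 symbol were averaged (5 members have 2 probes), giving 8905 features. Symbols came from the platform annotation, and 7399 of 7490 probes with 1 symbol matched RefSeq (GRCm38.p6), as did 55 of 56 members. For Isg15 the annotation lists the symbol in duplicate. One limma (3.58.1, R 4.3.3) model over 49 arrays tested each group mean against 0 and the contrasts, two-sided, with Benjamini-Hochberg adjustment over all 8905 features at 0.05. The 7 arrays with reversed dyes were left out. The fit was tested on simulated data.

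The members and lists were chosen with earlier results of these data known. Named are all called members, in each response the 3 largest rises and falls among members of 1 sign on every array, and the defining pathway genes. Alternatives varied the reversed arrays, centring, scaling, weights, blocks, probes, arrays left out and the shared spread. Promoters of H2-Ea, Usp18, Socs2, Socs5, Socs6, Socs7, Cd74 and Tap2 were not used here.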

Additional observations from a re-analysis of the deposited data

Results flagged for a closer look

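Primary cells at 48 h had too few arrays for the search for outlying arrays and were not examined. Of 35 combinations of member and group examined for a single array far from the rest, 6 had one. The threshold marks about 1 in 20 groups by chance, and the combinations were chosen for their values, so the 2 shares are not compared. These were Ifi203 in ras cells at 24 h, replicate 3 (-5.61), Ifit2 in ras cells at 6 h, replicate 3 (-5.46), Oasl2 in primary cells at 24 h, replicate 6 (2.07), Irf2bpl in ras cells at 6 h, replicate 6 (0.90), Irf2 in primary cells at 6 h, replicate 1 (0.68) and H2-Ob in ras cells at 48 h, replicate 4 (-0.88).

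The late minus early differences that passed their own test were Ifit3 (0.76), Oasl2 (0.91) and Socs6 (0.44) in primary cells, and B2m (0.78) and Isg15 (1.12) in ras cells.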

How the results depend on the processing

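With only RefSeq-matched probes, and with the probe of largest variance in place of the mean, every count stayed within 1.5 times its value in the report. Other settings moved counts of members called. Without centring, ras late minus early gave 1. Array weights gave 4 at 24 h in primary cells, 8 at 6 h, 7 at 24 h and 1 at 48 h in ras cells, 4 for ras minus primary at 24 h, 4 for ras late minus early and 3 for KO minus WT. Scaled arrays gave 2 at 24 h in primary cells and 3, 4 and 2 at 6, 24 and 48 h in ras cells. Ranges of database numbers as a random term gave 7 and 1 at 24 h and 48 h in ras cells and 1 for ras late minus early. The first range alone gave 3 at 24 h in ras cells. Later ranges alone gave 3 at 24 h in primary cells, 2 at 24 h in ras cells and 0 for late minus early in both. Groups fitted alone gave 0 at 48 h in primary cells and 0 at 24 h and 48 h in ras cells. Reversed arrays as deposited gave 4, 4 and 1 in those groups and 0 for late minus early in both. Reversed arrays turned, with a dye term, gave 1 at 24 h in primary cells, 2 and 0 at 24 h and 48 h in ras cells, and 1 for ras minus primary at 48 h. There Ifi209 at 48 h in ras cells turned to 0.15, and in the later ranges H2-Eb1 at 24 h turned to -0.10. Without the 2 widest arrays (primary 6 h replicate 1 and ras 24 h replicate 1) 5 were called at 24 h and 1 at 6 h in ras cells and 1 for KO minus WT, with 13 at 48 h in primary and 6 at 48 h in ras cells. With the reversed KO arrays as deposited, KO minus WT gave 0. The cause of these shifts was not tested.

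Leaving out 1 array at a time gave 3 to 10 at 48 h in primary cells, 5 to 13 at 24 h, 0 to 7 at 48 h and 0 to 1 at 6 h in ras cells, 1 to 4 and 0 to 4 for late minus early in primary and ras cells, and 0 to 1 for ras minus primary at 48 h and for KO minus WT. Of 32 called values of single members, 5 kept their call without every array.

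Replicate numbers were not taken to pair the arrays. Same-numbered arrays of different groups had residual correlations from -0.773 to 0.39 with a median of 3.78e-04. In 0 of the 26 pairs of groups with 3 or more shared numbers did every correlation exceed 0.1. Ras and primary cells at 48 h shared fewer numbers and had 0.39 (replicate 1, the highest) and 0.05 (replicate 2). Low correlations do not show that pairing was absent. With a replicate block, 1 member was called at 24 h in primary cells, 7 at 24 h in ras cells, 11 at 48 h in primary and 5 at 48 h in ras cells. A replicate block could not be fitted for KO minus WT, whose 4 groups had 1 array each. A fit on those 4 arrays with cell type as a term, which pairs KO with WT within a cell type, called 0 members.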
